A study of Mus musculus with 18 samples.

Results

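Kidney cortex from mice with lupus nephritis on a multi-target treatment was compared with kidney cortex from mice on MMF alone, gene by gene. The 6 libraries of this comparison were every library labelled with either treatment, among 18 libraries of the series, and all 15035 deposited genes entered it. All 6 mice carried the Mrl/lpr genotype, in which a defective Fas gene leads to lymphoproliferation, autoantibodies and immune-complex glomerulonephritis. MMF mice bear the numbers 1, 14 and 27 and multi-target mice the numbers 6, 18 and 39, which pair no mice. The labels give no doses, ages, sexes or treatment times, and they do not list the drugs in the multi-target treatment. The other groups, each of 3 mice, were Mrl/lpr on vehicle, FK506 or prednisone, and a healthy Mrl/Mpj wild type group on vehicle. They served for the spread between mice and as reference levels. The labels do not say whether animals were housed or collected together, so a p-value measures the spread between these mice only.

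In clinical lupus nephritis, multi-target therapy is the name for mycophenolate mofetil (MMF) combined with tacrolimus (FK506) and a glucocorticoid. MMF is converted to mycophenolic acid, which blocks inosine monophosphate dehydrogenase and so starves dividing lymphocytes of guanine nucleotides. FK506 binds the immunophilin Fkbp1a and inhibits calcineurin, the phosphatase that lets NFAT enter the nucleus and switch on cytokine genes in T cells. It also acts on calcineurin in the nephron, where salt, potassium, calcium and magnesium transport are known to respond. Glucocorticoids bind the receptor Nr3c1, which induces genes such as Fkbp5 and Tsc22d3 and represses inflammatory genes.

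Values are deposited log2 levels, and a difference is multi-target minus MMF, so 1 log2 unit is a doubling. A gene was called at an adjusted p under 0.05 in limma, with Benjamini-Hochberg adjustment over all genes. "Not overlapping" means that all 3 mice of a group lay on the same side of all 3 of the other. Gene levels in recovered reads summed to 28939845 to 32293698 per MMF library and to 32476099 to 37667208 per multi-target library. Defining kidney genes were high in all 6 libraries. Lrp2, the endocytic receptor megalin of the proximal tubule, was at 16.005 to 17.04, Umod, the urinary protein of the thick ascending limb, at 17.29 to 17.99, and Nphs1, nephrin of the podocyte slit diaphragm, at 10.63 to 11.37. Adipoq, an adipocyte hormone, was at 3.51 to 4.83, and Cyp11a1, a steroid-making enzyme of the adrenal gland, at 5.57 to 6.50. Other markers of these tissues were less even. Hsd3b1, on the adrenal list, was at 2.72, 7.14 and 7.20 in MMF mice 1, 14 and 27. In multi-target mice 6, 18 and 39 it was at 4.49, 5.77 and 3.70. Pnpla2, on the adipocyte list, was at 12.43, 14.65 and 14.36 against 12.95, 13.96 and 12.33. Fas itself, a death receptor, was at 7.94, 8.11 and 7.98 in MMF mice and 7.91, 8.18 and 7.89 in multi-target mice, which does not test the mutation.

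Before the gene results, the 3 MMF libraries have to be described, since they did not look alike. Between MMF mice 14 and 27 the median absolute difference over genes was 0.15 log2 units, whereas MMF mouse 1 differed from mouse 14 by 0.40 and from mouse 27 by 0.40. Among multi-target mice the median absolute differences were 0.15 (mice 6 and 18), 0.18 (mice 6 and 39) and 0.25 (mice 18 and 39). On the second principal component of all 18 libraries, MMF mice 14 and 27 lay at -51.9 and -48.1 and MMF mouse 1 at 20.003. Multi-target mice 6, 18 and 39 lay at -8.7, -29.5 and 24.02. On this component MMF mouse 1 lay inside the range of the multi-target mice, and MMF mice 14 and 27 lay outside it. On the first component MMF mouse 1 lay at 11.8, above the multi-target range of -10.02 to 6.3, and MMF mice 14 and 27 lay below that range, at -12.3 and -29.7. Across genes, which are not independent replicates, MMF mouse 1 correlated at 0.989 with multi-target mouse 39 and at 0.944 and 0.942 with the other MMF mice. The multi-target mice were spread too. Multi-target mouse 18 correlated at 0.980 with MMF mouse 14 and with MMF mouse 27, at 0.989 with multi-target mouse 6 and at 0.966 with multi-target mouse 39. Described genes that were called without this library are named as such, and a list's median is also given without it where it moved by more than 1.5 times. MMF mouse 1 was singled out by its values, so calls and adjusted p without it describe its influence. They are not separate support for a difference between the treatments.

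**Figure D1:**
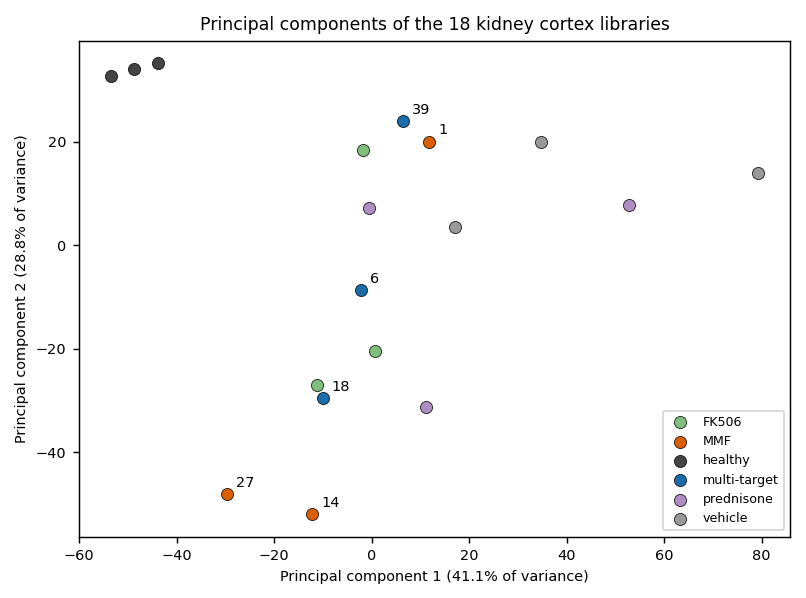
First and second principal components of the 18 kidney cortex libraries (axes in component units, with the percent of variance), 1 point per mouse, coloured by group, with mouse numbers on the MMF and multi-target points. MMF mice 14 and 27 lie at -51.9 and -48.1 on the second component, apart from MMF mouse 1 at 20.003, while the multi-target mice span -29.5 to 24.02.

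No gene was called between the treatments: 0 of 15035 (0%), with a smallest adjusted p of 0.059 in limma, for Dusp14. At an unadjusted limma p under 0.05 there were 1126 genes (7.49%), of which 808 (5.37%) were higher and 318 (2.12%) lower with the multi-target treatment. That split leaned higher in 71.8% of these genes, but in 42.7% of 1081 after quantile normalization and in 38.8% of 1191 after median centring, so no overall direction is given. The multi-target mice did not overlap the MMF mice and lay above them in 747 genes (4.97%) and below them in 230 (1.53%). The median gene differed by 0.04, and 122 genes differed by more than 1 log2 unit, 76 of them higher and 46 lower. The 95% interval of the difference lay within 1 log2 unit of no difference in 83.9% of genes, and its median half-width was 0.39.

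The count of 0 depended on MMF mouse 1 and on how libraries were weighted. Without MMF mouse 1, with 2 MMF mice left, 2521 genes (16.8%) were called, 1287 higher (8.56%) and 1234 lower (8.21%). Leaving out any other of the 6 libraries gave 0 calls. With limma's array weights, 6935 genes were called. Those weights set multi-target mouse 6 at 26.6 and MMF mouse 1 at 0.0955, and their estimation gave a convergence warning.

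Dusp14 came closest to the threshold. It encodes a dual-specificity phosphatase that acts on MAP kinases and lies on the minus strand at chr11:84048041-84069261 (mm10). Its level was 9.36, 8.94 and 8.99 in MMF mice and 9.90, 9.93 and 9.81 in multi-target mice. All 3 multi-target mice lay above all MMF mice, by 0.78 ± 0.11 (SE; 1.72-fold), with a limma adjusted p of 0.059. The vehicle mean was 9.85 and the healthy mean 9.77, so it was the MMF mice that lay apart from both. Dusp14 was the only gene called after the lowest 25% of genes were left out (limma adjusted p = 0.0474).

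With Dusp14, the 12 non-overlapping genes of smallest p that lay higher with the multi-target treatment did not pass the test. Thap2, a THAP-domain DNA-binding protein, was at 9.18, 8.89 and 9.21 in MMF mice and 9.85, 9.84 and 9.97 in multi-target mice, a difference of 0.80 ± 0.13 (SE; limma adjusted p = 0.163). Ppp1r10, a nuclear regulator of protein phosphatase 1, was at 10.60, 10.56 and 9.98 against 11.37, 11.49 and 11.04. Tnfrsf25, death receptor 3 of activated T cells, had the largest mean difference of the 12: 6.57, 5.32 and 5.85 in MMF mice against 7.06, 7.61 and 7.25, or 1.39 ± 0.29 (SE; 2.62-fold; limma adjusted p = 0.446). Hoxb4, a homeobox transcription factor, differed by 0.66, and Zbtb26, a zinc finger protein, by 0.67. Gorasp1, a Golgi stacking protein, differed by 0.61, and Dffa, the inhibitor of the caspase-activated DNase, by 0.53. Adal, an adenosine deaminase-like enzyme of purine metabolism, was at 9.44, 8.93 and 9.33 against 9.72, 9.71 and 9.81. Fam187b (0.83), Pgbd1 (0.95) and the RNA-binding Rbm12b2 (0.75) complete the set, whose adjusted p ran from 0.059 to 0.539.

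None of the 11 genes described as lower with the multi-target treatment passed the test either, and Sesn2 had the smallest p of them. Sesn2, a stress-induced sensor that restrains the growth kinase complex mTORC1, lies at chr4:132492032-132510501 (mm10). It was at 11.86, 13.15 and 12.48 in MMF mice and 11.62, 11.42 and 11.19 in multi-target mice. Every multi-target mouse lay below every MMF mouse, and the difference was -1.09 ± 0.23 (SE; limma adjusted p = 0.512). H3f3b, which encodes the replacement histone H3.3, was at 13.89, 14.38 and 14.31 against 13.32, 13.44 and 13.51. Hist1h1c, a linker histone, was at 10.59, 11.01 and 10.45 against 9.69, 9.84 and 9.91. Hmgb2, a chromatin protein of proliferating cells, differed by -0.73 and Sfmbt1, a Polycomb-related protein, by -0.50. Dusp4, another MAP kinase phosphatase, was at 9.39, 9.54 and 9.81 against 9.15, 8.99 and 8.60. Rassf10 (-0.96), Mbip (-0.65) and the zinc finger genes Zfp212 (-0.74), Zfp763 (-0.62) and Zfp472 (-0.57) were the others, and adjusted p ran from 0.512 to 0.602.

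These 23 genes were chosen for not overlapping between the treatments, so their separation is a description. The levels of the vehicle and healthy mice played no part in the overlap, although their spread entered the p-values used for ranking. Of the 12 higher genes, the vehicle mean was nearer the multi-target mean than the MMF mean in 11 and the healthy mean in 9. Of the 11 lower genes the same held for 10 and for 10. MMF mouse 1 was the MMF mouse nearest to the multi-target mice in 10 of the 12 higher and 9 of the 11 lower genes. The shares over all genes were not computed, so these counts do not show a trait particular to the 23 genes. All 23 were called without MMF mouse 1, but they were chosen by small p and non-overlap in these same data. That count is a description too.

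**Figure D2:**
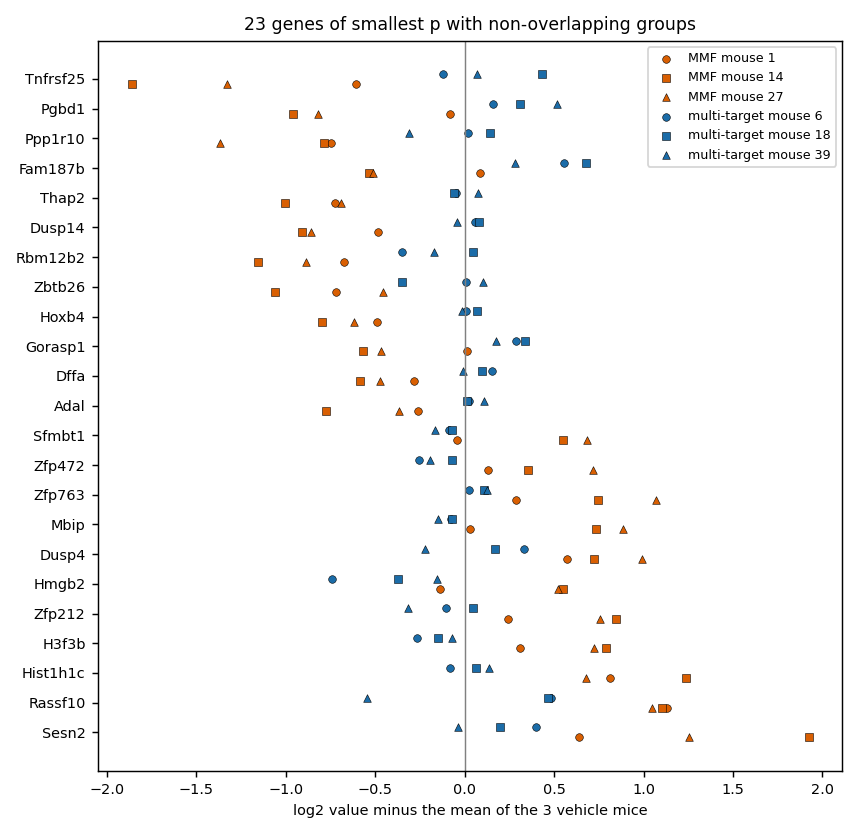
Log2 value minus the vehicle mean (horizontal axis) for the 23 described genes of smallest p whose groups do not overlap, 1 symbol per mouse, MMF in orange and multi-target in blue. The mean of the blue points is nearer the vehicle mean at 0 than that of the orange points in 11 of the 12 higher and 10 of the 11 lower genes. Single blue points lie off 0, and Fam187b and Hmgb2 are the exceptions. Orange points lie left of blue in the 12 higher genes and right of blue in the 11 lower genes. The circle of MMF mouse 1 is the orange point nearest to blue in 10 of the 12 and 9 of the 11 genes.

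Genes of the drug targets were read next. Impdh1 and Impdh2, the enzymes that mycophenolic acid blocks, did not differ by more than the spread. Impdh1 was at 8.73, 8.69 and 8.54 in MMF mice and 8.94, 8.63 and 8.83 in multi-target mice, with a 95% interval of the difference from -0.24 to 0.54. Impdh2, the form known from dividing cells, was at 11.05, 11.30 and 11.35 against 11.20, 11.37 and 11.02, with an interval from -0.40 to 0.33. Of 22 measured genes of purine nucleotide synthesis, 13 lay above 0 and the median was 0.07, against 56.9% above 0 and a median of 0.04 over all genes. None was called. Pfas, which catalyses a step of inosine monophosphate synthesis, was at 10.08, 9.81 and 10.15 in MMF mice and 10.42, 10.57 and 10.31 in multi-target mice, without overlap (0.42 ± 0.13 SE; limma adjusted p = 0.588). Ampd2, an AMP deaminase, differed by 0.39 and Gmpr2, a GMP reductase, by 0.28, both with overlap. These 2 were called higher without MMF mouse 1, at 0.63 and 0.40. In the same fit 2 other genes of the list were called lower. Over all genes 8.56% were called higher and 8.21% lower. The list means relative to healthy were 0.02, 0.06 and 0.06 in MMF mice and 0.14, 0.20 and 0.11 in multi-target mice, which did not overlap but lay within 0.2 of each other.

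Calcineurin genes gave the same kind of picture. Ppp3ca, its main catalytic subunit, was at 11.67, 12.11 and 12.14 in MMF mice and 11.58, 11.72 and 11.61 in multi-target mice. MMF mouse 1 lay within the multi-target range and the groups overlapped, with a difference of -0.34 ± 0.11 (SE; limma adjusted p = 0.621). Without MMF mouse 1 it was called (-0.49; limma adjusted p = 0.00409). In that fit 4 of 20 calcineurin, NFAT and FK506-binding genes were called higher and 2 lower, where 8.56% and 8.21% of all genes were. Ppp3cb, the second catalytic subunit, differed by -0.13 (95% interval -0.37 to 0.11), and Fkbp1a by 0.11 (-0.36 to 0.57). Rcan1, a calcineurin inhibitor whose gene is itself an NFAT target, was at 11.999, 11.09 and 10.37 in MMF mice and 11.85, 11.65 and 12.54 in multi-target mice. The mean was higher with the multi-target treatment by 0.86 (95% interval 0.11 to 1.62; limma adjusted p = 0.644), and MMF mouse 1 lay inside the multi-target range. Without that mouse the difference was 1.29 (limma adjusted p = 0.017). Of 13 measured NFAT targets 7 lay above 0, with a median of 0.01, or -0.10 after quantile normalization. Egr2, a zinc finger gene that NFAT activates in T cells, was at 6.202, 2.83 and 0.57 against 4.83, 4.19 and 6.31. Its difference was 1.91, and 3.41 without MMF mouse 1 (limma adjusted p = 0.0419). The NFAT target median was then 0.05.

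Kidney transport genes known to respond to calcineurin inhibitors lay slightly higher with the multi-target treatment. Of 17 measured, 15 lay above 0, the median was 0.20, and the list means of the 3 multi-target mice (-0.20, -0.26 and -0.01 relative to healthy) did not overlap those of the MMF mice (-0.42, -0.31 and -0.39). None of the 17 was called, and 4 of them lay higher without overlap, where 4.97% of all genes did. Kcnj1 and Calb1 also belong to the loop of Henle and distal tubule list, so these lists are not separate evidence. Kcnj1, the ROMK potassium channel of the thick ascending limb and collecting duct, was at 13.82, 13.44 and 13.49 in MMF mice and 13.94, 14.01 and 14.03 in multi-target mice (0.41; limma adjusted p = 0.644). Calb1, the calcium-binding calbindin of the distal convoluted tubule, was at 14.04, 13.87 and 13.98 against 14.36, 14.88 and 14.80 (0.72; limma adjusted p = 0.647). For Calb1 the vehicle mean was 13.75 and the healthy mean 14.96, so the multi-target mice lay nearer healthy.

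The glucocorticoid receptor gene Nr3c1 was at 12.27, 12.15 and 12.41 in MMF mice and 12.13, 11.76 and 12.30 in multi-target mice, with a 95% interval of the difference from -0.51 to 0.08. Genes that glucocorticoids induce lay lower on average with the multi-target treatment. Of 23 measured, 4 lay above 0, the median was -0.43, none was called and 3 had an unadjusted limma p under 0.05, all lower, where 2.12% of all genes did. Fkbp5, a co-chaperone of the receptor, was at 13.27, 14.72 and 14.06 in MMF mice and 13.53, 14.54 and 12.58 in multi-target mice, against a vehicle mean of 12.68. Its groups overlapped, and the interval of the difference ran from -1.49 to 0.54. Tsc22d3, the leucine zipper protein GILZ, was at 11.80, 13.09 and 12.50 against 12.34, 12.44 and 11.85. Zbtb16, a transcription factor, was at 10.10, 12.02 and 10.70 against 8.57, 10.39 and 9.80 (-1.35). Errfi1, an inhibitor of EGF receptor signalling, was at 14.89, 16.03 and 16.07 against 14.70, 14.99 and 14.88 (-0.81). In each of these 4 genes MMF mouse 1 was the lowest MMF mouse. Without MMF mouse 1 the list's median was -0.89 and 6 genes were called, all lower, where 8.21% of all genes were called lower. Among them were Errfi1 (-1.19; limma adjusted p = 0.00633) and Zbtb16 (-1.77; limma adjusted p = 0.0488). The differences of Fkbp5 and Tsc22d3 were then -0.85 and -0.58, not called.

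**Figure D3:**
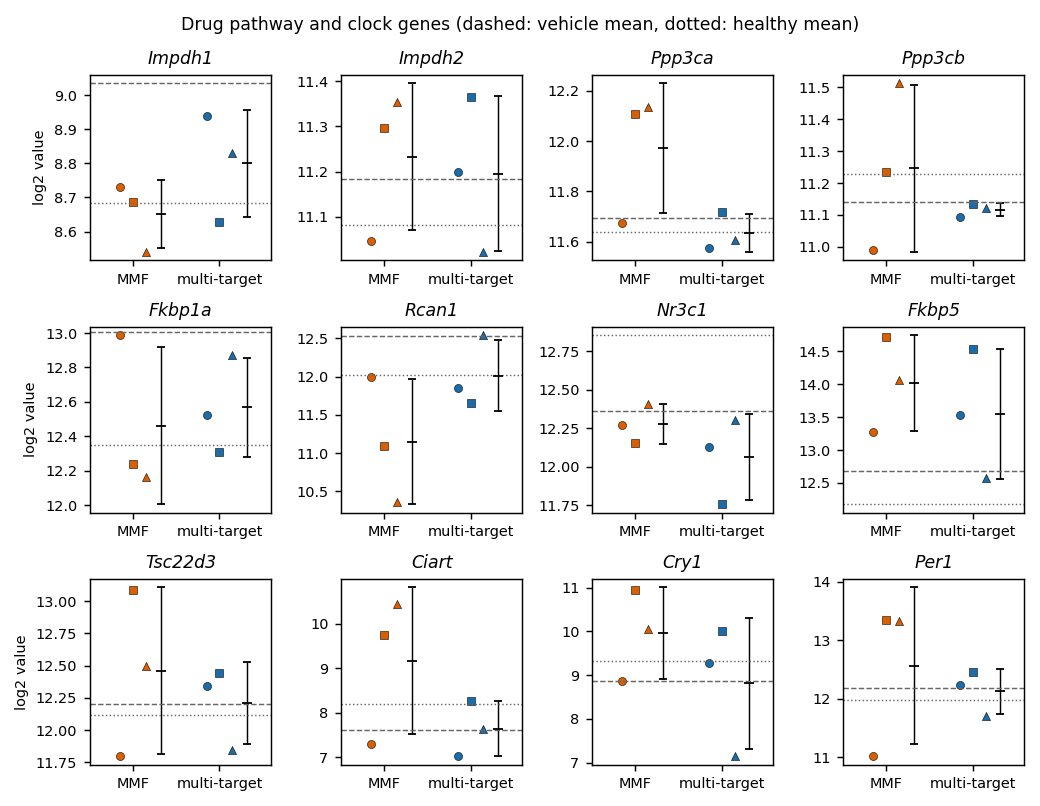
Log2 value (vertical axis) of 12 drug pathway and clock genes in the 3 MMF mice (orange) and the 3 multi-target mice (blue), with mean ± SD in black, the vehicle mean dashed and the healthy mean dotted. The groups overlap in all 12 panels, and in Rcan1, Ppp3ca, Ciart and Per1 the circle of MMF mouse 1 lies apart from the other MMF mice on the side of the multi-target mice.

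Immediate early genes, which respond within minutes to growth factors and to stress, were read together with heat shock genes. Of 18 measured, 6 lay above 0 and the median was -0.51. Zfp36, which binds and destabilises cytokine mRNAs, was at 11.07, 13.82 and 12.76 in MMF mice and 11.25, 11.46 and 10.55 in multi-target mice (-1.46; limma adjusted p = 0.644). Dusp1, a MAP kinase phosphatase that glucocorticoids also induce, was at 11.45, 14.02 and 12.60 against 11.63, 11.82 and 10.94 (-1.23). Ier2, a nuclear early response gene, did not overlap, at 9.29, 10.45 and 9.39 against 8.86, 9.26 and 8.64 (-0.79). Hspa1b, an inducible HSP70 gene named after its values were seen, lay 1.10 higher without overlap. Leaving out MMF mouse 1 gave a list median of -0.82 and 3 genes called lower, where 8.21% of all genes were. Zfp36 was then at -2.20 (limma adjusted p = 0.0088) and Dusp1 at -1.85 (limma adjusted p = 0.0351). Reads of Hspa1b and its near-identical copy Hspa1a could have been shared in counting.

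The mean over the circadian clock genes was higher in MMF mice 14 and 27 than in the other 4 mice, but not every clock gene followed it. The clock is a feedback loop in which Clock and Arntl bind E-box sequences and activate Per, Cry and other repressors of their own activity. Of 18 measured clock genes, 2 lay above 0 and the median was -0.30, with no gene called. Relative to healthy, the list mean was -0.50, 0.51 and 0.52 in MMF mice 1, 14 and 27, and -0.27, 0.04 and -0.45 in multi-target mice 6, 18 and 39. Ciart, a clock repressor, was at 7.30, 9.74 and 10.44 in MMF mice and 7.03, 8.27 and 7.64 in multi-target mice (-1.52; limma adjusted p = 0.653). Cry1 was at 8.87, 10.95 and 10.05 against 9.27, 10.01 and 7.15 (-1.15). Bhlhe40, the clock gene of smallest p, was at 13.21, 13.16 and 13.15 against 12.41, 12.73 and 13.20 (limma adjusted p = 0.653). In Bhlhe40, MMF mouse 1 lay with the other MMF mice, and multi-target mouse 39 lay above MMF mice 14 and 27. Per1, chosen after its values were seen, was at 11.01, 13.34 and 13.33 against 12.23, 12.45 and 11.70 (-0.43). In Ciart and Per1, MMF mice 14 and 27 lay above all other 4 mice. Without MMF mouse 1, Ciart (-2.45; limma adjusted p = 0.0408) and Per1 (-1.21; limma adjusted p = 0.0135) were called, and the list median was -0.50. They were the only 2 of the 18 clock genes called, both lower, where 8.21% of all genes were called lower.

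The promoters of Ciart, Per1 and Cry1 are shown because they carry the E-box, the binding sequence of Clock and Arntl. Each is the 250 bases upstream of a RefSeq start (GRCm38.p6), on the gene's strand, at chr3:95882229-95882478 (minus) for Ciart, chr11:69098699-69098948 (plus) for Per1, of which RefSeq has a second start, and chr10:85185055-85185304 (minus) for Cry1. Capitals mark CACGTG, which reads the same on both strands.
Ciart: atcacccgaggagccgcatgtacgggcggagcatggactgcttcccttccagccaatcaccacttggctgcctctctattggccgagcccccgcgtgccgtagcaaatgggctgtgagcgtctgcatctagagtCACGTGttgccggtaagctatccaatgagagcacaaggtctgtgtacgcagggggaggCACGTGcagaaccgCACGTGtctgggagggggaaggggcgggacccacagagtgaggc
Per1: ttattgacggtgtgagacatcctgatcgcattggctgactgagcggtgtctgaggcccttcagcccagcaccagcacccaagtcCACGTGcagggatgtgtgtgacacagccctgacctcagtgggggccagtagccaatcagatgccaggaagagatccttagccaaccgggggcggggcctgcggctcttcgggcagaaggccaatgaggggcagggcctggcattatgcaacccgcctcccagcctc
Cry1: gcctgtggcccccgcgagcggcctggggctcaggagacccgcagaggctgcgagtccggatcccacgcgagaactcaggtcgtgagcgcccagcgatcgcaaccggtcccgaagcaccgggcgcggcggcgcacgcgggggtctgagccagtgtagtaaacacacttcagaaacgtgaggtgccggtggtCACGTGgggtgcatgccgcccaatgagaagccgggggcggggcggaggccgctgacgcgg
The Ciart window holds 3 E-boxes and those of Per1 and Cry1 hold 1 each. Of 15 clock genes with a promoter in the table, 5 held at least 1 E-box in these 250 bases (Per1, Cry1, Tef, Ciart and Bhlhe41), against 9.44% of 11201 measured genes. In the glucocorticoid-induced list the E-box was in 6 of 20 promoters, Per1 and Dusp1 among them. The D-box TTATGTAA, searched on both strands, was in 1 clock promoter, that of Per3, and in 0.714% of all. A match is a run of letters and does not show binding.

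Immune genes, the usual readout of lupus nephritis, were not called in either direction. All 25 measured macrophage and myeloid markers lay above 0 (24 after quantile normalization), with a median of 0.43, but the mice of both groups overlapped in each of them. The list means relative to healthy were 2.25, 1.04 and 0.43 in MMF mice 1, 14 and 27 and 1.76, 1.21 and 2.07 in multi-target mice 6, 18 and 39. MMF mouse 1 was the highest of the 6 and MMF mouse 27 the lowest, below a vehicle mean of 3.12. Fcgr1, the high-affinity IgG receptor, was at 8.33, 7.09 and 6.03 against 8.07, 7.44 and 8.48 (0.85; 95% interval -0.34 to 2.04). Csf1r, the macrophage growth factor receptor, was at 11.57, 11.10 and 10.72 against 11.65, 11.49 and 11.67. Clec4a3, a myeloid lectin, differed by 0.78. Without MMF mouse 1 the macrophage median was 0.95, and Fcgr1 and Clec4a3 differed by 1.44 and 1.47, but none of the 25 was called. In bulk tissue, fewer cells of a type and less RNA per cell cannot be told apart.

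Other leukocyte lists had smaller medians with all 6 libraries, and these too depended on MMF mouse 1. The medians were 0.09 for 19 T cell markers, 0.01 for 11 B cell and plasma cell markers and 0.08 for 6 natural killer and cytotoxic markers, and they became -0.02, -0.05 and -0.11 after quantile normalization. With MMF mouse 1 left out they were 0.36, -0.14 and 0.54. MHC class II genes, which present antigen to T cells, had a median of 0.02 over 11 genes, and MHC class I and peptide-loading genes of 0.00 over 19. Both medians were higher without MMF mouse 1, at 0.62 and 0.30, with 1 class I gene called higher, where 8.56% of all genes were. Type I interferon-stimulated genes lay above 0 in 25 of 28, with a median of 0.35, and 0.58 without MMF mouse 1. Their list means relative to healthy overlapped, at 1.47, 1.07 and 0.32 in MMF mice and 0.96, 1.04 and 1.97 in multi-target mice. Oasl2, an antiviral protein of the oligoadenylate synthetase family, was at 10.09, 8.59 and 7.11 against 9.35, 9.48 and 10.64, so within each treatment mice differed by more than 1 log2 unit. Its difference was 1.23, or 1.97 without MMF mouse 1, and it was not called either way. Interferon-gamma-induced GTPases and chemokines had a median of 0.08, or 0.69 without MMF mouse 1, and their list means spanned 1.22 to 3.43 in MMF mice and 1.48 to 3.50 in multi-target mice.

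**Figure D4:**
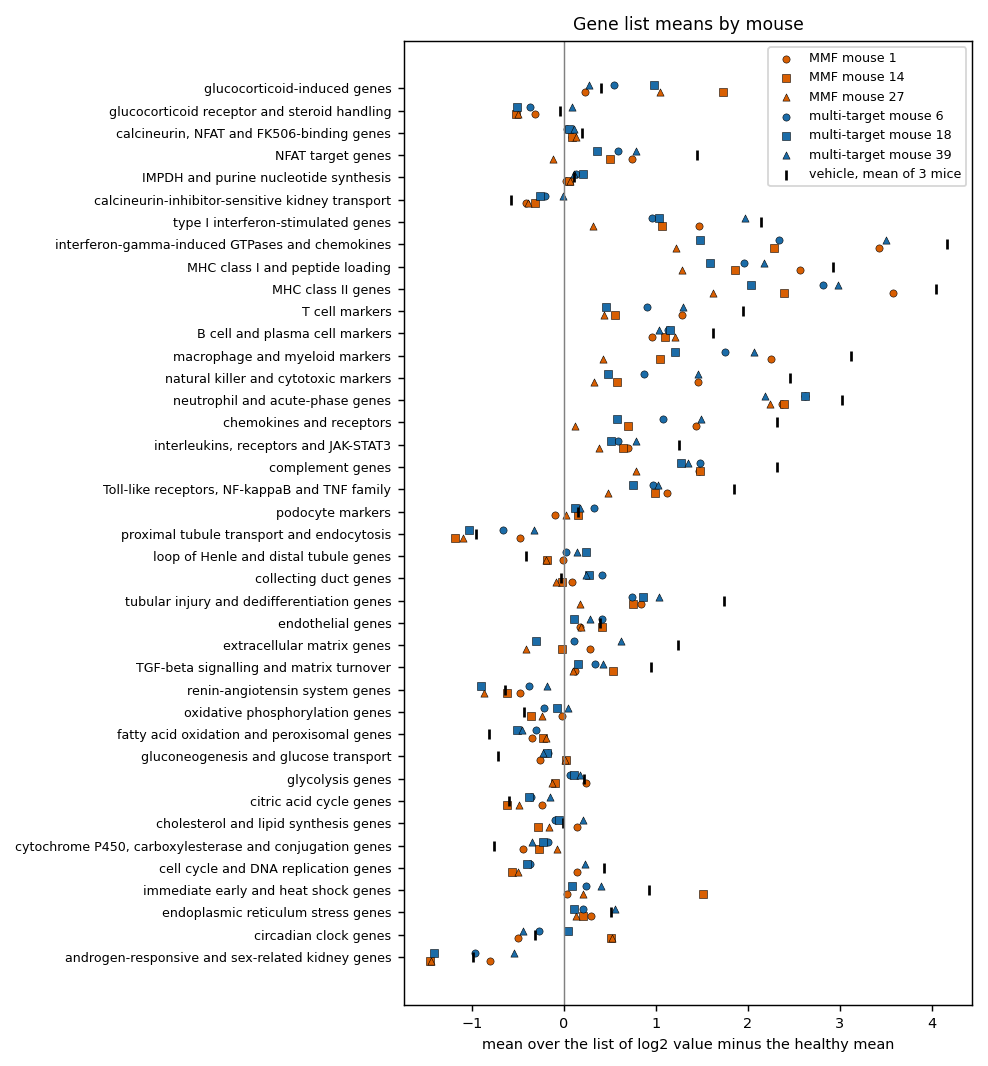
Mean over each gene list of the log2 value minus the healthy mean (horizontal axis), 1 symbol per mouse, MMF in orange, multi-target in blue, and a black tick for the mean of the 3 vehicle mice. In the macrophage list the orange circle of MMF mouse 1 lies at 2.25, above the multi-target points, and MMF mice 14 and 27 lie at 1.04 and 0.43, whereas the loop of Henle and collecting duct lists show blue right of orange with no overlap.

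Saa3 also separated the treatments in every mouse. It encodes an acute-phase serum amyloid made in inflamed tissue and lies at chr7:46711998-46715700 (mm10). It was at 4.92, 5.55 and 4.28 in MMF mice and 7.001, 6.53 and 7.08 in multi-target mice, against a vehicle mean of 7.66 and a healthy mean of 0.50. All 3 multi-target mice, near the vehicle level, lay above all 3 MMF mice, MMF mouse 1 included. The difference was 1.95 (95% interval 0.85 to 3.06; 3.88-fold; limma adjusted p = 0.588), and 1.96 without MMF mouse 1 (limma adjusted p = 0.0402). The 16 measured neutrophil and acute-phase genes did not go together. Saa1 differed by 1.46, while the neutrophil calgranulin genes S100a8 and S100a9 differed by -1.22 and -1.25, none of them called. Stat6, the transcription factor of interleukin-4 signalling, was at 12.08, 11.74 and 11.73 against 12.11, 12.12 and 12.16 (0.28). Cd55, which shields cells from complement, was at 8.33, 8.17 and 8.26 against 8.94, 8.57 and 8.33 (0.36). Xbp1, a transcription factor of secretory cells and of the unfolded protein response, was at 12.92, 13.39 and 13.16 against 12.74, 12.90 and 12.84 (-0.33). None of these 3 genes overlapped, narrowly so for Cd55, and none was called. With MMF mouse 1 left out, Stat6 (0.39; limma adjusted p = 0.0192) and Xbp1 (-0.45; limma adjusted p = 0.0219) were called, and the median of the neutrophil and acute-phase list went from 0.17 to 0.30. Of 30 interleukin and JAK-STAT3 genes, the list of Stat6, 14 lay above 0 and 16 below. In that fit 3 of them were called higher and 2 lower. Of 17 endoplasmic reticulum stress genes, 12 lay above 0, opposite to Xbp1. Their median was 0.12, or 0.26 in that fit, with 2 called lower and 0 higher. Over all genes 8.56% were called higher and 8.21% lower.

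Podocyte genes, which build the glomerular filter, included several that lay higher with the multi-target treatment. Of 21 measured, 13 lay above 0 and the median was 0.16. None was called, 5 were higher at an unadjusted limma p under 0.05, where 5.37% of all genes were, and 4 lay higher without overlap, where 4.97% of all genes did. Nphs1 was at 10.73, 10.99 and 10.63 in MMF mice and 11.37, 11.27 and 11.08 in multi-target mice (0.46 ± 0.15 SE; limma adjusted p = 0.605). Ptpro, a podocyte receptor phosphatase, was at 10.30, 10.08 and 10.07 against 10.82, 10.47 and 10.50 (0.45). Col4a3, a collagen of the glomerular basement membrane, was at 12.91, 13.13 and 13.03 against 13.45, 13.31 and 13.72 (0.47). In Nphs1 and Col4a3, MMF mouse 1 was not the MMF mouse nearest to the multi-target mice. Without it the list median was 0.02 and 2 genes were called, Ptpro (0.52) and Tcf21 (1.09), where 8.56% of all genes were called higher. Wt1, the defining podocyte transcription factor, differed by -0.11, or -0.43 in that fit. Ehd3, an endocytic protein of glomerular endothelium, was at 10.73, 10.32 and 10.29 against 11.20, 10.75 and 10.98 (0.53), without overlap, and was called without MMF mouse 1 (0.67; limma adjusted p = 0.0361). Its list of 22 endothelial genes was mixed, with 12 above 0, 10 below and a median of 0.03. Without MMF mouse 1 that median was -0.06. In that fit 1 of the 22 was called higher and 1 lower, where 8.56% and 8.21% of all genes were.

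Tubular segments beyond the proximal tubule lay higher as lists. Of 18 loop of Henle and distal tubule genes 16 lay above 0, with a median of 0.23, and their list means relative to healthy were -0.01, -0.18 and -0.20 in MMF mice and 0.02, 0.24 and 0.14 in multi-target mice. Of 19 collecting duct genes 18 lay above 0, with a median of 0.21 and list means of 0.09, -0.02 and -0.09 against 0.41, 0.27 and 0.24. Neither list overlapped between the treatments, no gene of either was called, and 4 genes in each lay higher without overlap, where 4.97% of all genes did. Slc4a1, the anion exchanger of acid-secreting intercalated cells and of red cells, was at 10.82, 10.23 and 10.76 against 11.63, 11.20 and 11.23 (0.75). Rhcg, an ammonia channel of the same segment, was at 12.19, 11.99 and 12.04 against 12.42, 12.66 and 12.40 (0.42). Aqp4, a basolateral water channel of the collecting duct, named after its values were seen, was at 10.98, 11.36 and 10.78 against 12.56, 11.95 and 12.89 (1.42; limma adjusted p = 0.662). Its vehicle mean was 10.72, with an SD of 2.14 over 3 mice, and its healthy mean 12.43. The vehicle mean is thus a loose reference for Aqp4. The globin genes Hba-a1 and Hba-a2, markers of red cells, differed by -1.26 and -0.93, opposite to Slc4a1.

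Proximal tubule genes varied more between mice. Of 25 measured, 20 lay above 0 and the median was 0.22, but list means overlapped, at -0.48, -1.18 and -1.10 relative to healthy in MMF mice and -0.67, -1.03 and -0.32 in multi-target mice. Slc6a18, an amino acid transporter, did not overlap, at 14.92, 14.72 and 14.62 against 15.53, 15.17 and 15.43 (0.62). Its neighbour in the genome Slc6a19, the main neutral amino acid transporter, had the opposite sign, at 13.72, 15.67 and 15.76 against 14.01, 14.47 and 13.75 (-0.98). Havcr1, the injury marker KIM-1, was at 12.20, 8.94 and 7.24 against 10.79, 9.999 and 13.34, a range of more than 3 log2 units within each treatment. Kap, an androgen-regulated proximal tubule gene named after its values were seen, was at 15.87, 10.71 and 7.79 against 13.31, 11.99 and 15.71 (2.21; 95% interval -1.80 to 6.21). Neither difference exceeded the spread between mice. Leaving out MMF mouse 1 moved Havcr1 from 1.91 to 3.28 and Kap to 4.41, neither called, and Slc6a19 to -1.64 (limma adjusted p = 0.0386). The proximal tubule median then went from 0.22 to 0.33.

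No gene of the metabolic lists was called. Fatty acid oxidation and peroxisomal genes had a median of -0.11 over 30 genes, 11 of them above 0, and 4 had an unadjusted limma p under 0.05, all lower, where 2.12% of all genes did. Cyp4a10, a fatty acid hydroxylase induced by PPARalpha, was at 13.69, 14.67 and 15.03 in MMF mice and 13.87, 13.83 and 13.72 in multi-target mice (-0.65). Cpt1a, which admits fatty acids to mitochondria, was at 14.07, 15.19 and 15.07 against 14.22, 14.55 and 13.94 (-0.54). Pdk4, the kinase that turns off pyruvate dehydrogenase in fasting, differed by -1.23 without overlap. G6pc, the last enzyme of glucose release, did not overlap either, at 15.00, 16.25 and 15.78 against 14.87, 14.73 and 14.24 (-1.07 ± 0.40 SE; limma adjusted p = 0.644). Pck1, the entry enzyme of gluconeogenesis, was at 16.84, 18.44 and 17.93 against 16.26, 17.12 and 16.65 (-1.06). For G6pc the vehicle mean was 13.49 and the healthy mean 15.13, so here the multi-target mice lay between MMF and vehicle. Without MMF mouse 1, 4 genes of gluconeogenesis and glucose transport were called lower and 1 higher, and the same counts held for fatty acid oxidation and peroxisomal genes, where 8.21% and 8.56% of all genes were. The medians of these lists were then -0.35, from -0.13, and -0.07. Among the genes called lower were Cyp4a10 (-1.04), Cpt1a (-0.89), G6pc (-1.41) and Pck1 (-1.51). Oxidative phosphorylation genes lay above 0 in 37 of 39 by small amounts, with a median of 0.12 and a range of -0.05 to 0.34. The median was 0.21 without MMF mouse 1, with 2 genes called higher, where 8.56% of all genes were.

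Cell cycle, xenobiotic and lipid genes added single genes rather than lists. Ccnd1, cyclin D1, was at 14.02, 12.64 and 12.55 against 14.25, 13.94 and 14.48 (1.15; limma adjusted p = 0.644), whereas the 30 cell cycle genes had a median of 0.10, or 0.01 after quantile normalization and 0.28 without MMF mouse 1. Cyp1a1, the aryl hydrocarbon receptor target, was at 7.37, 6.21 and 5.66 against 7.77, 7.34 and 7.84 (1.24). Insig1, the sterol feedback protein, was at 11.20, 13.47 and 13.98 against 11.40, 12.34 and 11.20 (-1.24). Scd1, a fatty acid desaturase, did not overlap, at 15.16, 14.36 and 14.02 against 15.35, 15.40 and 15.59 (0.93). In Ccnd1, Cyp1a1 and Insig1, MMF mouse 1 lay within the multi-target range or at its edge. Without it, all 3 were called, with differences of 1.63, 1.71 and -2.08.

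A few genes with large mean differences were picked after their values were seen. Slc10a2, the sodium-dependent bile acid transporter, was nearly constant in MMF mice at 8.74, 8.59 and 8.69 and reached 10.30, 9.49 and 11.28 in multi-target mice. The difference was 1.68 (95% interval 0.58 to 2.77; limma adjusted p = 0.588), and the healthy mean was 11.14. Gjb6, a connexin, was at 6.89, 4.44 and 4.98 against 7.82, 7.62 and 7.21 (2.11; limma adjusted p = 0.588). Ndnf, a secreted neuron-derived factor, was at 4.09, 9.91 and 9.19 against 3.71, 5.80 and 4.77 (-2.97), with a vehicle mean of 4.03 and a healthy mean of 3.78. Only MMF mice 14 and 27 were above 9 among these 6 mice. In the fit without MMF mouse 1, Gjb6 (2.84; limma adjusted p = 0.00504) and Ndnf (-4.79; limma adjusted p = 0.00309) were called and Slc10a2 (1.71) was not.

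The genes that differ most between vehicle and healthy kidneys did not separate the 2 treatments, Saa3 apart. Ubd, an interferon-induced ubiquitin-like protein, was at 11.10, 8.63 and 6.91 in MMF mice and 8.98, 7.83 and 9.80 in multi-target mice, between a healthy mean of 4.91 and a vehicle mean of 12.07. Fpr2, a formyl peptide receptor, was at 7.04, 5.41 and 4.97 against 6.82, 5.74 and 6.89, with a healthy mean of 0.84. Dnase1, the nuclease that clears extracellular DNA, was at 11.57, 13.67 and 13.87 against 12.44, 12.56 and 12.94, with a vehicle mean of 11.18 and a healthy mean of 14.91. The carboxylesterase gene Ces1d was at 14.13, 13.56 and 13.67 against 13.24, 12.83 and 14.05, and Prlr, the prolactin receptor, at 9.99, 7.78 and 8.71 against 8.79, 8.84 and 11.68. In Ubd, Fpr2 and Dnase1, MMF mouse 1 was the mouse nearest to the vehicle mean of all 6. Without it the differences of Ubd, Fpr2, Dnase1 and Prlr were 1.10, 1.29, -1.12 and 1.53, none of them called.

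Markers of neighbouring tissues were read as lists. Mean levels over 13 of 14 adipocyte markers were 6.77 to 7.62 in MMF mice and 6.78 to 7.09 in multi-target mice, and over 12 of 15 adrenal markers 6.10 to 6.72 and 6.25 to 6.55. Over 10 of 12 urothelium markers they were 6.11 to 6.51 and 5.37 to 6.25. Upk2, a uroplakin, was at 4.64, 3.51 and 4.03 against 2.25, 2.77 and 2.38, without overlap (-1.60), and its part in any other result was not tested. Differences also went with base composition. The median difference was -0.03, 0.00, 0.04, 0.08 and 0.10 from the lowest to the highest of 5 equal classes of transcript GC content. By transcript length it was 0.09, 0.06, 0.04, 0.02 and -0.03 from the shortest to the longest of 5 classes. Without MMF mouse 1 both trends were steeper, from -0.09 to 0.15 by GC content and from 0.16 to -0.11 by length. Relative to the mean of the 6 libraries, MMF mouse 1 ran from 0.08 in the shortest class to -0.17 in the longest. MMF mice 14 and 27 ran the other way, from -0.11 and -0.09 to 0.10 and 0.11. The part of GC content and length in the single-gene differences was not tested.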

How the data were processed

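RNA sequencing libraries were made from frozen kidney cortex, from 1 ug of total RNA per sample, per the labels' protocols. The authors deposited 1 log2 expression value per gene and library, and their processing notes name limma and mm10 without versions. Aligner, annotation and normalization are each not given in the sources used here. In the 6 libraries compared, 2 to the power of the value was a whole number of reads times a library factor, within 0.001 reads, for 75.1% to 75.5% of genes, which gave the read totals. The log2 values were fitted as deposited in limma 3.58.1 (R 4.3.3), as group means over all 18 libraries (12 residual degrees of freedom) with a trended prior. The test was two-sided, and a simulation with known changes was used to check it. The simulation drew each gene with the same spread in every library and shifted no single library. It therefore cannot check the test for a library like MMF mouse 1. Intervals are 95% limma intervals.

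Up to 12 genes per direction are described, those of smallest p without overlap and with a difference of at least 0.5, and up to 3 members of smallest p per list, drug targets and the largest disease genes were eligible too. For 1 of the lower genes the result is not reported here. Per1, Aqp4, Kap, Slc10a2, Gjb6, Ndnf, Hspa1b, Pdk4, Saa1, S100a8, Hba-a2, Tcf21 and Wt1 were named outside this rule, after their values were seen. So were the tissue markers Lrp2, Umod, Adipoq and Cyp11a1. The treatments compared and the gene lists were chosen with earlier results of these data known. A spreadsheet had made dates of 23 gene names, whose rows entered the tests and are left unnamed. Gene coordinates are from GENCODE (mm10), and 95.2% of genes matched for GC content and length.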

Additional observations from a re-analysis of the deposited data

How the results depend on the processing

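Genes called at 0.05 numbered 0 with only the 6 compared libraries fitted, without FK506 mouse 12 and vehicle mouse 17, after quantile normalization, after median centring, with no variance trend and with a robust prior, and the smallest adjusted p in these fits ran from 0.0687 to 0.907. Unadjusted calls went down from 1126 to 390 with only the 6 libraries fitted. Without the lowest 25% of genes 1 gene was called, higher. Array weights gave 6935 calls, 3695 higher and 3240 lower, and reversed Ubd (1.19) and Saa1 (-0.27); the cause was not tested. Leaving out 1 library at a time gave 0 to 2521 calls, 0 to 1287 higher and 0 to 1234 lower, and only leaving out MMF mouse 1 gave any. In those fits some differences changed sign: Dnase1 ran from -1.12 to 0.026, Fas from -0.11 to 0.033, Fkbp1a from -0.048 to 0.37, Fkbp5 from -0.97 to 0.014, Impdh2 from -0.13 to 0.050, Ppp3cb from -0.26 to 0.0046, Prlr from -0.012 to 1.53, Tsc22d3 from -0.58 to 0.064, Ubd from -0.995 to 1.10 and Wt1 from -0.43 to 0.10. Of the 92 genes with a reported difference, no other changed sign in any of the 14 alternatives. No paired analysis was possible because the treatments share no mouse number. With 3 mice per group, the spread between mice of the same treatment limits what can be called. Without MMF mouse 1 the spread comes from 2 MMF mice and the other groups.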
